A study of Mus musculus with 6 samples.

Results

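The cytosolic ribosomal proteins are the protein components of the ribosomes that translate nuclear messenger RNA. Their genes were taken from the deposited expression table as the protein-coding rows named Rpl or Rps with a number, together with Rpsa, Rplp0, Rplp1 and Rplp2, while pseudogenes and the Rps6k kinases were left out. The rule found 85 genes of the 57180 in the table, 33 of the small subunit and 52 of the large subunit, and all 85 were described there as a ribosomal protein. Values are TPM, a relative transcript abundance in which each gene is scaled by its length and each library to the same total. Tested genes had to average 1 TPM or more over the 6 libraries, which 84 of the 85 did, and 15446 genes in all. The exception was Rpl10l, a retrogene known from testis, which was listed at 0 in every library.

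In the cell, the ribosomal proteins are made in the cytoplasm, carried to the nucleolus and assembled there with ribosomal RNA into a small subunit, which reads the message, and a large subunit, which joins the amino acids. Their messages are among the most abundant in most tissues and tend to move together. Most belong to the terminal oligopyrimidine (TOP) class, which starts with a C followed by an unbroken run of C and T (U in the RNA), and whose translation is controlled by mTORC1 and the binding protein LARP1. Growing and dividing cells, among them activated lymphocytes, hold many ribosomes, whereas the fat cell is mostly lipid.

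The libraries came from inguinal white adipose tissue, a subcutaneous fat depot, of male wild-type (WT) mice. The HFD group (3 libraries) had a high-fat diet, and the HEP group (3 libraries) had the same kind of diet with hesperidin, a citrus flavonoid, at 0.5%, each for 12 weeks. The series also describes a control diet, which is not analysed here, so both groups carried the high-fat diet. All 6 libraries have the same batch label, and the labels do not say whether each came from a separate animal or from pooled tissue, so the p-values measure the spread between these libraries only. TPM keeps no read depth, and the depth of each library is therefore unknown.

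Adipocyte markers were high in every library, with the 12 markers (Adipoq, Plin1, Lep and others) summing to between 32141 and 56166 TPM. The libraries differed in other cell types. The 11 B and plasma cell markers summed to 661 TPM in HFD 3, 1266 TPM in HEP 1 and 1370 TPM in HEP 3, against 12.6 TPM in HFD 1, 19.0 TPM in HFD 2 and 13.9 TPM in HEP 2. Markers of T and NK cells, 12 in number, split the libraries in the same way, at 473 to 678 TPM against 7.69 to 13.8 TPM, and none of these 23 markers was at 0 throughout. HFD 3, HEP 1 and HEP 3 are called lymphocyte-rich below and the other 3 libraries lymphocyte-low. This is a description of the libraries and not a grouping by the study. HEP 2 also stood apart in 13 skeletal muscle markers, which summed to 16765 TPM there against 62.7 to 1888 TPM elsewhere, and HFD 1 and HEP 2 had the highest liver marker sums, 2170 and 3193 TPM.

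The sequence around the transcription start is given for some of the members that recur below. It shows what a TOP start looks like, and that not every member has one. Each window holds 15 bases before the annotated start and 15 from it on, read 5′ to 3′ on the gene's strand from RefSeq (GRCm38.p6), and capitals mark a C within 5 bases of the start and the unbroken run of C and T that follows it.
Rpl38 (chr11:114668565-114668594, plus strand): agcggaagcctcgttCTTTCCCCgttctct
Rps27 (chr3:90213634-90213663, minus strand): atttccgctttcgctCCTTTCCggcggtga
Rps6 (chr4:86857353-86857382, minus strand): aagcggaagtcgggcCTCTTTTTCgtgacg
Rps18 (chr17:33955651-33955680, minus strand): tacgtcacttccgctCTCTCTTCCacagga
Rps15a (chr7:118116133-118116162, minus strand): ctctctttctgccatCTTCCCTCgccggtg
Rplp2 (chr7:141447636-141447665, plus strand): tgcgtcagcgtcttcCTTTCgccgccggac
Rps27l, start 1 (chr9:66946071-66946100, plus strand): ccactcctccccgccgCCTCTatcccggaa
Rps27l, start 2 (chr9:66946398-66946427, plus strand): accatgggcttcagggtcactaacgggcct
Rpl36al (chr12:69184053-69184082, minus strand): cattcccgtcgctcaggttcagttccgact
Rpl7l1 (chr17:46782642-46782671, minus strand): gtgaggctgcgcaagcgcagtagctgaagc
Rpl39l (chr16:10170213-10170242, plus strand): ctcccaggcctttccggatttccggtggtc

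Rpl38, Rps27, Rps6, Rps18, Rps15a and Rplp2 carry the run exactly at the annotated start. Rps27l carries one near 1 of its 2 annotated starts, and for the paralogs Rpl36al, Rpl7l1 and Rpl39l no such run began within 5 bases of the start. The Rpl39l window does hold such a run just before the start, unmarked because it begins outside that range. Of the 85 members, 64 had an entry in the RefSeq promoter table. With at least 4 C or T bases required after the C, 29 of these 64 (45.3%) held the run, against 21.2% of all 27025 genes of that table and 23.8% of 10212 tested protein-coding genes. The run did not divide the paralogs from the other members, though the printed windows may look so. Rplp0, Rpsa, Rpl10, Rpl11 and Rpl41 were among the 34 tested members without it, and the paralog Rpl22l1 was among the 29 with it. The letters CCGGAAG, the core bound by ETS factors, were found on either strand of the 300-base promoter window in 26 of 64 members (40.6%), against 9.93% of all genes and 19.2% of tested coding genes. A match describes letters and is not a measured site, and an annotated start a few bases away from the used one hides a run. Between lymphocyte-rich and lymphocyte-low libraries, the median log2 difference was 0.93 for the 29 members with it and 0.85 for 34 tested members without it, and the median log2 fold change of HEP over HFD was 0.42 in both.

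Ribosomal protein messages made up a large part of the transcript pool, and that part varied widely within each diet group. They summed to 57023 TPM in HFD 1, 69130 TPM in HFD 2 and 112547 TPM in HFD 3. In the hesperidin group they summed to 123135 TPM in HEP 1, 65625 TPM in HEP 2 and 143020 TPM in HEP 3. As shares of all TPM these were 5.70%, 6.91% and 11.3%, and 12.3%, 6.56% and 14.3%. HEP 2 therefore lay within the range of HFD 1 and HFD 2, while HEP 1 and HEP 3 lay above all HFD libraries. The means were 7.96% ± 2.92 (SD, n = 3) in HFD and 11.1% ± 4.02 (SD, n = 3) in HEP, a ratio of 1.39, with overlapping groups. The share followed the lymphocyte markers in its split: the lymphocyte-rich libraries held 11.3% to 14.3% and the lymphocyte-low ones 5.70% to 6.91%. Their part in the result was not tested. Transcripts of the mitochondrial genome took 13.9% to 23.0% of all TPM, the most in HFD 1. With them left out of the total, the ribosomal protein share was still 7.41% to 8.11% in the low and 13.5% to 17.3% in the rich libraries.

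**Figure D1:**
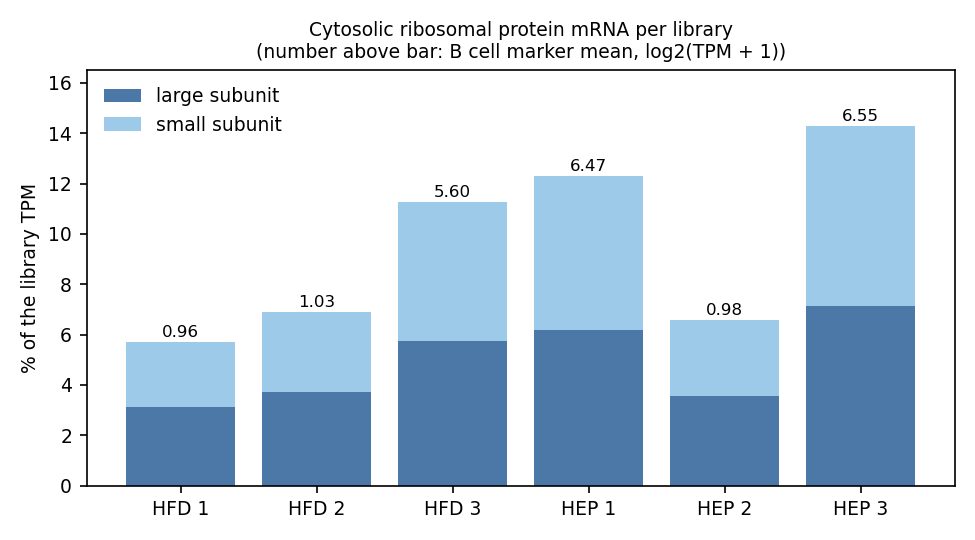
Share of all TPM held by the 85 ribosomal protein genes (vertical axis, percent), 1 bar per library, stacked by large and small subunit. The number above each bar is the mean log2(TPM + 1) of the 11 B and plasma cell markers. The bars of HFD 1, HFD 2 and HEP 2 reach 5.70% to 6.91%, and those of HFD 3, HEP 1 and HEP 3 reach 11.3% to 14.3%.

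In bulk tissue, a smaller number of cells of a type and less RNA per cell cannot be told apart, and because TPM is a share, a rise of one class lowers every other. Adipocyte markers were at 32141 to 43795 TPM in the lymphocyte-rich libraries and at 53878 to 56166 TPM in the others.

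The question put by the diets was whether hesperidin on a high-fat diet altered these genes. Nearly all members had a higher mean with hesperidin, but none passed the test. Of 84 tested members, 81 (96.4%) had a higher mean log2 value in HEP, against 58.6% of all tested genes. Under quantile normalization these were 79 members and 42.3% of all genes, and the median of all genes moved from 0.07 to -0.06 on the log2 scale. Members had a median log2 fold change of 0.43 (1.35-fold), where all tested genes had 0.07 (under quantile normalization 0.33 and -0.06). The fitted values ran from -0.56 for Rps4l to 1.79 for Rpl3l. In limma with Benjamini-Hochberg adjustment over all 15446 genes, 0 members had an adjusted p under 0.05, as had 0% of all genes, with adjusted p between 0.879 and 0.991 for the members and 0.78 at the lowest for any gene. Without adjustment 0 members had p under 0.05, against 1.81% of all genes, and the smallest was 0.109, for Rps4l. The groups overlapped for every member, whereas 1.88% of all genes had every HEP library above every HFD library and 3.58% had every one below.

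The difference was within the spread between libraries of a group. The median standard error of a member's log2 fold change was 0.37, against 0.27 over all genes, and the median 95% interval reached 0.90 to either side. Before adjustment over genes, differences of up to about that size in either direction were thus not resolved by 3 libraries a group. With the adjustment, larger ones could also go uncalled. The order of the libraries was much the same from gene to gene. HEP 3 was the highest of all 6 libraries for 76 of 84 members (10.5% of all tested genes), HFD 1 was the lowest for 78 (25.7%), and HEP 2 lay between HFD 1 and HFD 2 for 69. For the last of these the share over all genes was not counted. Both HEP 1 and HEP 3 exceeded HFD 3 for 74 members, as they did for 45.7% of all tested genes.

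**Figure D2:**
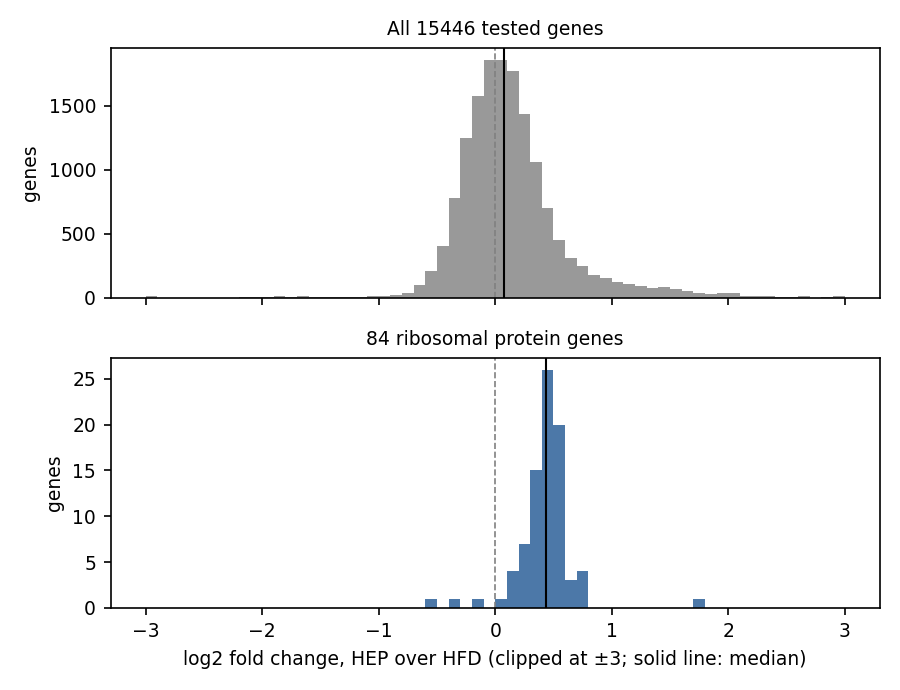
Number of genes (vertical axes) by log2 fold change of HEP over HFD on the log2(TPM + 1) scale, for all 15446 tested genes (top) and the 84 tested ribosomal protein genes (bottom), with the median as a solid line and 0 dashed. The members form a narrow peak around 0.43, to the right of the median of 0.07 over all genes, with Rpl3l far to the right and Rps4l to the left.

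Single libraries moved these values. Without HEP 2 the median log2 fold change of the members was 0.75, and without HFD 3 it was 0.71, while without HFD 1 or without HEP 3 it was 0.22. With HEP 2 left out, the groups stopped overlapping for 75 members, 73 with HEP higher (33.5% of all genes) and 2 with HEP lower (15.6%). Still 0 members passed in limma, with a smallest adjusted p of 0.207, while 1 gene of the whole table did. In that fit 33 members had an unadjusted p under 0.05, against 0 or 1 with any other library left out. The share of all genes with such a p was not counted, so these counts cannot be read as a result about the members. With HFD 3 left out the groups stopped overlapping for 12 members, 11 with HEP higher (7.11% of all genes) and Rpl39l with HEP lower (9.50%). Among the 3 lymphocyte-low libraries, HEP 2 against HFD 1 and HFD 2, the median log2 fold change of the members was 0.06, against -0.08 for all tested genes. Among the 3 rich libraries, HEP 1 and HEP 3 against HFD 3, it was 0.22, against 0.11 for all tested genes. With the B and plasma cell marker level as a covariate it was 0.07, against -0.007 for all tested genes, and 72 of 84 members were higher in HEP. The first of these fits had a single HEP library and the second a single HFD library, assumed to vary like the others, so their lack of calls (0 members) says little. With the covariate 0 members passed as well.

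Between lymphocyte-rich and lymphocyte-low libraries, 78 of 84 members (92.9%) had all 3 rich libraries above all 3 low ones, against 30.5% of all tested genes. All 3 rich libraries lay below the low ones for 3 members (3.57%), against 13.7% of all genes. The median member differed by 0.92 on the log2 scale (1.90-fold), and the median gene by 0.11. No test is given, since the split was read from the libraries themselves. Under median-of-ratios scaling the first count was 76 of 84, with 26.1% of all genes, and under quantile normalization it was 78, with 21.4%. All-gene shares below were 23.6% and 30.1% under those scalings.

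The 77 tested members outside the list of paralogs are called core members here, and all 77 had a higher HEP mean and all rich libraries above all low ones. Their log2 fold changes of HEP over HFD lay between 0.12 and 0.79 (median 0.44), with unadjusted p of 0.179 to 0.59. Under median-of-ratios scaling Rpl24 and Rpl41, and under quantile normalization Rpl41, no longer separated rich from low, and quantile normalization put Rpl38 and Rpl41 slightly lower in HEP. With pseudogene TPM added to the members, Rpl27 no longer separated rich from low. The small-subunit members had a median log2 fold change of 0.48 (31 of 33 higher in HEP) and a rich-minus-low median of 1.02. For the large subunit these were 0.40 (50 of 51) and 0.81. The ratio of summed small-subunit to large-subunit TPM was 0.824, 0.854 and 0.954 in HFD 1 to 3, against 0.989, 0.841 and 1.01 in HEP 1 to 3, so the rich libraries had the higher ratios. Since subunits are counted gene by gene, this says nothing of assembled subunits.

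Of the small subunit, Rps27, a zinc-finger protein, had the highest mean level of all members (4872 TPM) and, among members with rich above low, the widest step. It was at 1929, 2479 and 6172 TPM in HFD 1 to 3 and at 7014, 2372 and 9264 TPM in HEP 1 to 3. HEP 3 was the highest and HFD 1 the lowest, the groups overlapped, and the rich mean was 3.31 times the low mean. Its log2 fold change of HEP over HFD was 0.79 ± 0.66 (SE), adjusted p = 0.879 in limma. Rps24, known from Diamond-Blackfan anaemia, was next in level at 2021, 2349 and 4568 TPM in HFD, against 5433, 2189 and 6106 TPM in HEP. It kept the same order of libraries, with a log2 fold change of 0.58 ± 0.51 (SE).

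Rps6, the substrate of S6 kinase, was at 584, 756 and 1331 TPM in HFD 1 to 3 and at 1580, 674 and 1680 TPM in HEP 1 to 3. Rpsa, which also serves as a laminin receptor, was at 545, 644 and 1251 TPM and at 1497, 636 and 1583 TPM. Rps18, often used as a reference in quantitative PCR, was at 906, 1117 and 1935 TPM and at 2118, 1062 and 2512 TPM. The rich mean was 2.28, 2.37 and 2.13 times the low mean in these 3 genes, and HEP 2 lay between HFD 1 and HFD 2 in each. Rps20 differed a little, with HEP 2 (509 TPM) above HFD 1 (380 TPM) and HFD 2 (451 TPM) and a log2 fold change of 0.53 ± 0.36 (SE), unadjusted p = 0.191. Rps15a, chosen after its values were seen for its step, was at 764, 1006 and 2168 TPM and at 2805, 893 and 3170 TPM, with a rich mean 3.06 times the low one.

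Of the large subunit, Rpl38, known for the translation of Hox messages in the mouse embryo, was at 1103, 1294 and 1856 TPM in HFD 1 to 3 and at 1752, 1106 and 2178 TPM in HEP 1 to 3. HEP 1 and HEP 2 were both below HFD 3, so the groups overlapped. Its mean was 1418 ± 392 TPM (SD, n = 3) in HFD and 1679 ± 540 TPM (SD, n = 3) in HEP, and its log2 fold change was 0.22 ± 0.33 (SE), adjusted p = 0.88 in limma. Within the lymphocyte-low libraries it was -0.11 and within the rich ones 0.07. The rich mean was 1.65 times the low one, below the 1.90-fold of the median member.

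Rplp0, the scaffold of the stalk to which elongation factors bind, was at 480, 587 and 955 TPM in HFD and at 1076, 556 and 1216 TPM in HEP. It followed the median member of each library more closely than any other member, with an SD of 0.013 on the log2 scale over the 6 libraries after subtraction of that median. Its stalk partners Rplp1 and Rplp2 kept the same split, and Rplp2, with 941, 1058 and 1388 TPM in HFD, against 1443, 990 and 1499 TPM in HEP, spanned less. Rpl13a, a part of an interferon-induced complex that silences translation and another common reference gene, was next in level after Rps24. It stood at 1586, 1948 and 4178 TPM in HFD and at 4789, 1964 and 5346 TPM in HEP, a rich mean 2.60 times the low one.

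Rpl11, which with Rpl5 and the 5S ribosomal RNA can bind Mdm2 and stabilise p53, was at 833, 894 and 1309 TPM in HFD and at 1333, 901 and 1559 TPM in HEP. Its log2 fold change was 0.31 ± 0.29 (SE). Rpl10, X-linked and among the last proteins to join the large subunit, was at 532, 765 and 921 TPM and at 1117, 739 and 1085 TPM. It had the smallest unadjusted p of the core members, 0.179, with a log2 fold change of 0.42 ± 0.28 (SE). Rpl30 was at 565, 691 and 1133 TPM and at 1378, 679 and 1649 TPM (0.60 ± 0.42, SE, unadjusted p = 0.197). The gene with the smallest step of the core was Rpl41, the shortest ribosomal protein, at 1844, 2012 and 2329 TPM in HFD, against 2175, 1983 and 2545 TPM in HEP. It was chosen after its values were seen, and its rich mean was 1.21 times the low one.

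**Figure D3:**
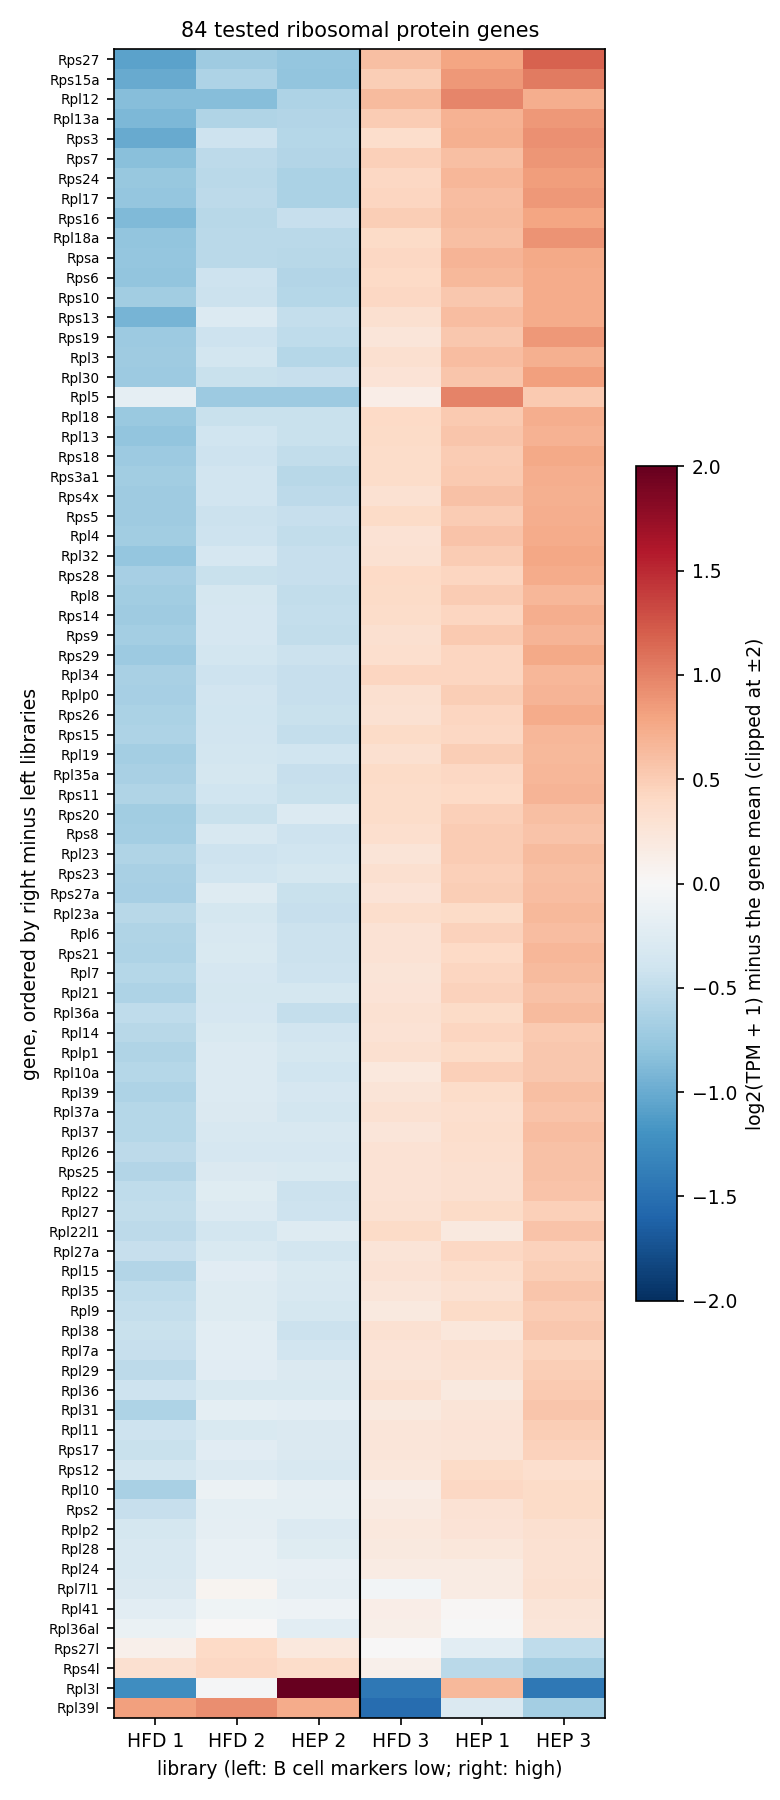
Log2(TPM + 1) of each tested ribosomal protein gene in each library relative to the gene's mean over the libraries (colour), with genes as rows ordered by their difference between libraries and the 3 lymphocyte-low libraries (HFD 1, HFD 2, HEP 2) to the left of the 3 rich ones (HFD 3, HEP 1, HEP 3). Most rows are low on the left and high on the right, whichever diet the library had, and Rps27l, Rps4l, Rpl39l and Rpl3l depart from this.

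The members moved as a block. After subtraction of the library's median member, the median SD of a member over the 6 libraries was 0.12 on the log2 scale, 65 of 84 members were under 0.2, and 4 were over 0.5 (Rpl3l, Rps27l, Rpl39l and Rps4l). Levels were high as well as coordinated: 78 members had a mean of at least 100 TPM, 38 of at least 1000 TPM, and 38 were among the 100 protein-coding genes with the highest mean TPM. The 5 highest (Rps27, Rps24, Rpl13a, Rpl23a and Rps15) held 18.1% of the members' TPM. When each library was scaled to its own median member, so that each gene was read relative to the others, the median log2 fold change was -0.03 and 37 of 84 members were higher in HEP. Only Rpl30 (HEP higher) and Rpl23a (HEP lower) then had groups that did not overlap, against 0.518% and 1.30% of all genes.

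The paralogs differed from one another. Rps27l, Rps4l and Rpl39l were lower in all lymphocyte-rich than in all lymphocyte-low libraries and had a lower HEP mean, though under quantile normalization the libraries overlapped for Rps27l. Rps27l, a p53-induced relative of Rps27, was at 363, 448 and 342 TPM in HFD 1 to 3 and at 294, 392 and 240 TPM in HEP 1 to 3. It was lowest in HEP 3, where Rps27 was highest, and its log2 fold change was -0.33 ± 0.22 (SE), unadjusted p = 0.182 and adjusted p = 0.879 in limma. Of the summed TPM of both, Rps27l held 15.8%, 15.3% and 5.25% in HFD and 4.03%, 14.2% and 2.53% in HEP. The 3 low libraries were thus all above 14% and the 3 rich ones all below 6%.

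Rps4l, an autosomal relative of the X-linked Rps4x, was at 33.8, 36.2 and 28.9 TPM in HFD and at 18.3, 35.1 and 16.4 TPM in HEP, with a log2 fold change of -0.56 ± 0.30 (SE). HEP 2 lay among the HFD libraries, and HEP 1 and HEP 3 lay below all of them. Its share of the pair was 4.49%, 3.85% and 1.95% in HFD, against 1.02%, 4.11% and 0.843% in HEP. Rpl39l, known from testis, was at 15.5, 16.9 and 2.25 TPM in HFD and at 6.61, 14.5 and 4.84 TPM in HEP. HFD 3 was the lowest here, not HEP 3, and the share of the pair with Rpl39 was 2.86%, 2.48% and 0.233% against 0.637%, 2.23% and 0.398%. The testis germ cell markers Prm1, Tnp1 and Ddx4 summed to under 1 TPM in every library.

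Rpl3l, the striated-muscle relative of Rpl3, was at 0.22, 1.86 and 0.08 TPM in HFD 1 to 3 and at 3.54, 31.1 and 0.07 TPM in HEP 1 to 3. HEP 2 was far above all others and HEP 1 next, which is also the order of the skeletal muscle marker sums (208, 805 and 97.8 TPM in HFD, 1888, 16765 and 62.7 TPM in HEP). The part of muscle content in its fold change of 1.79 ± 1.21 on the log2 scale (SE) was not tested. Rpl3l held 6.54% of the summed TPM of both genes in HEP 2 and under 0.4% elsewhere.

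Rpl36al, a relative of the X-linked Rpl36a, was at 346, 385 and 411 TPM in HFD and at 380, 328 and 449 TPM in HEP, with a log2 fold change of 0.01 ± 0.17 (SE), and turned slightly lower in HEP under median-of-ratios scaling. Its share of the pair was 51.0%, 50.9% and 41.4% against 38.2%, 49.1% and 38.2%, higher in the low libraries. Rpl7l1, a nucleolar relative of Rpl7, was at 31.4, 40.1 and 37.4 TPM and at 43.5, 33.9 and 48.4 TPM, and its share was 5.09% to 5.72% in the low and 3.58% to 3.70% in the rich libraries. Rpl22l1 tracked Rpl22. At 301, 334 and 563 TPM in HFD, against 498, 363 and 646 TPM in HEP, it held between 31.9% and 36.7% of the pair in every library, without a split. Of the 7 pairs with a tested paralog, 5 (Rps27l, Rps4l, Rpl39l, Rpl36al and Rpl7l1) had every low library above every rich one in this share. The parent was higher in every rich library in these pairs, and a share falls wherever the parent rises more. Rpl36al and Rpl7l1 were themselves higher on average in the rich libraries, by 0.23 and 0.29 on the log2 scale, against 0.88 for each parent. The count has no all-gene share beside it. Near-identical pairs can share reads, and their split then rests on the authors' estimate.

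**Figure D4:**
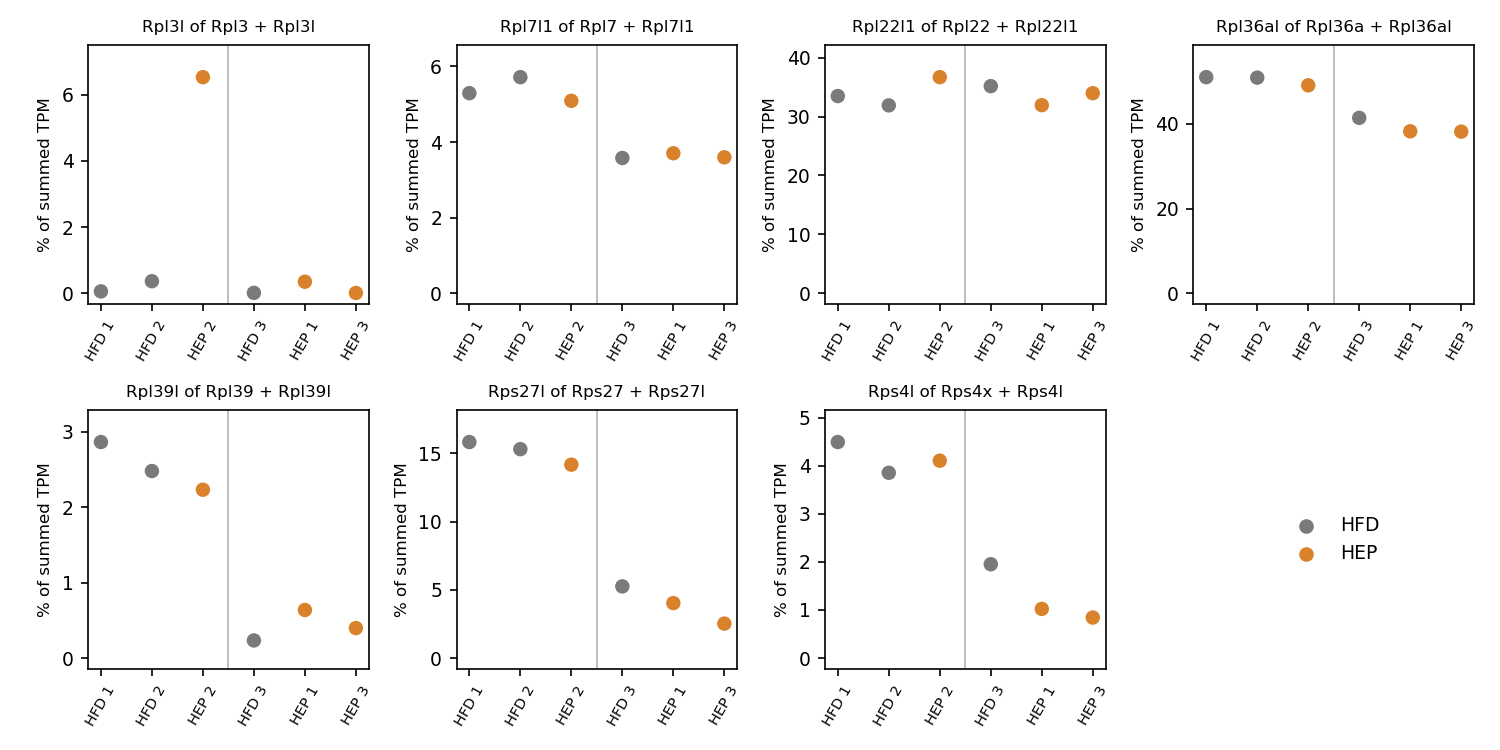
Share of the paralog in the summed TPM of the pair (vertical axes, percent, each panel with its own scale), 1 point per library, the 3 lymphocyte-low libraries to the left of the line and the 3 rich ones to the right, coloured by diet group. The shares of Rps27l, Rps4l, Rpl39l, Rpl36al and Rpl7l1 are higher on the left, Rpl22l1 is level, and Rpl3l is high in HEP 2 alone.

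Ribosomal protein genes have many processed copies in the genome, and the table lists TPM for such copies in rows of their own. Whether these values are transcripts of the copies or reads of the parent genes was not tested. There were 325 rows named as pseudogenes or retrogenes of 64 members, of which 40 reached a mean of 1 TPM. Their sum was 9.79% to 11.0% of the members' sum in each library, so it scaled with the members. For 11 members the copies exceeded the member itself. Rpl10 was at 860 TPM and Rpl10-ps3 at 931 TPM, Rps23 was at 408 TPM and Rps23-ps1 at 2088 TPM, and Rpl36a was at 494 TPM and Rpl36a-ps2 at 1422 TPM on average. Rpl12 (32.0 TPM) and Rpl5 (40.7 TPM) were low among the core members, and a noncoding row without a gene name, described in the table as the same protein, held 1592 TPM for Rpl12 and 782 TPM for Rpl5. Gm7536 (1869 TPM, for Rpl27a at 224 TPM) and Gm28900 (1165 TPM, for Rpl21 at 775 TPM) were rows of the same kind. All rows with a noncoding type, such a description and at least 100 TPM were taken, and these genes were chosen after their values were seen.

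The levels of Rpl12 and Rpl5 thus depend on whether these rows are counted. With its copies added, Rpl5 was at 433, 547 and 905 TPM in HFD 1 to 3 and at 1222, 519 and 1310 TPM in HEP 1 to 3. Rpl12 was at 706, 887 and 2152 TPM and at 2369, 788 and 2841 TPM. Both kept the split seen in the other core members, as they did without the copies. With all pseudogenes and copies added, the members' median log2 fold change was 0.44, and 81 of 84 were higher in HEP. Of the members, 21 also share exon bases with another gene of at least 1 TPM in the mouse annotation (GENCODE M21), 8 on the same and 15 on the opposite strand. The sources used here do not say whether counting used the strand.

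**Figure D5:**
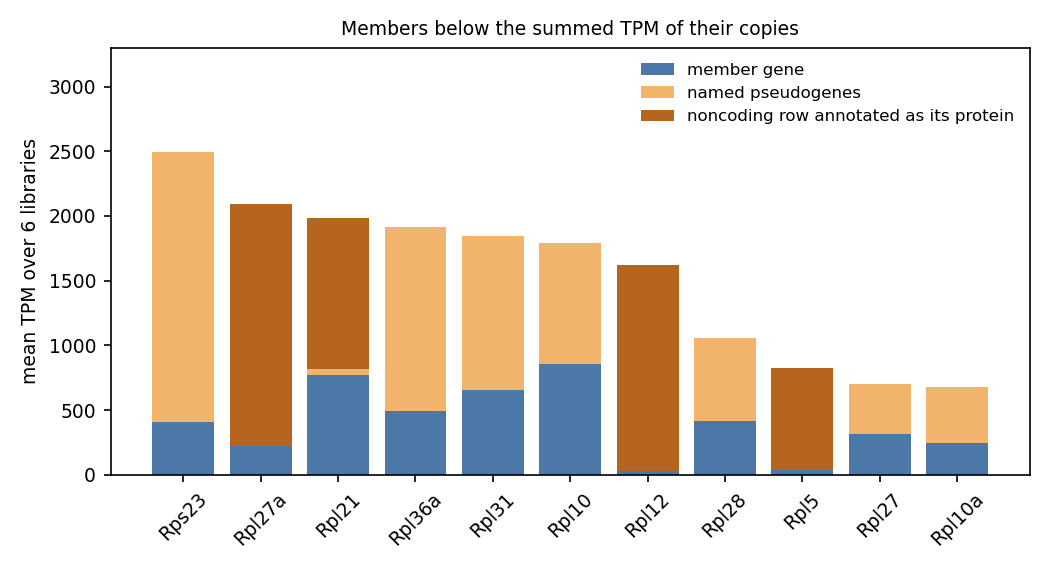
Mean TPM over the 6 libraries (vertical axis) of the 11 members whose copies exceed them, as stacked bars split into the member and its pseudogene or copy rows. For Rpl12 and Rpl5 almost the whole bar belongs to the copies, which are 1592 and 782 TPM against 32.0 and 40.7 TPM.

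The genes around the ribosome were counted from lists of known function, and in each list 0 genes passed the adjusted threshold. The counts below stand beside all tested genes, of which 58.6% had a higher HEP mean. All rich libraries lay above all low ones for 30.5% of all tested genes. Fau and Rack1, ribosomal constituents outside the naming rule, both had a higher HEP mean and rich above low libraries, and under median-of-ratios scaling both kept the higher HEP mean. Fau, made as a fusion with a ubiquitin-like protein, was at 562, 739 and 1129 TPM in HFD and at 1286, 642 and 1446 TPM in HEP. Of 14 other messages of the TOP class, 12 had a higher HEP mean (median log2 fold change 0.34) and 11 had all rich libraries above all low ones. Among them were Eef1a1, which brings aminoacyl-tRNA to the ribosome (3048, 3668 and 5009 TPM, then 5847, 3266 and 6390 TPM), and the growth-related Tpt1 (1712, 2037 and 3078 TPM, then 3356, 2002 and 3628 TPM). Vim, the intermediate filament of mesenchymal cells, ran the other way, with a log2 fold change of -0.34 ± 0.20 (SE).

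Of 50 genes of nucleolar assembly, 46 had a higher HEP mean (median log2 fold change 0.31) and 35 had rich above low libraries. Under quantile normalization these were 40 and 28, with 42.3% and 21.4% of all genes. Nop58, a core protein of box C/D small nucleolar particles, was at 26.7, 23.9 and 45.5 TPM in HFD and at 65.6, 32.5 and 63.6 TPM in HEP (0.72 ± 0.36, SE, unadjusted p = 0.0890). Of 15 genes of RNA polymerase I and its factors, which make the ribosomal RNA, 14 had a higher HEP mean (median 0.31) and 11 had rich above low libraries. These fell to 12 (median 0.17) and 5 under quantile normalization, with 42.3% and 21.4% of all genes. Elongation factors had 7 of 9 higher in HEP (median 0.35) and 5 with rich above low.

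Initiation factors had a median of 0.08, close to the 0.07 of all genes. Even so, 28 of 35 (80%) were higher in HEP, against 58.6% of all genes, and 14 had rich above low libraries. With quantile normalization 24 were higher and 17 had rich above low, with 42.3% and 21.4% of all genes. Chaperones and importers of ribosomal proteins had 6 of 10 higher (60%), near the 58.6% of all genes, with a median of 0.08. Under quantile normalization these were 5 and -0.01, with 42.3% of all genes higher. Regulators of growth had 16 of 21 higher, with a median of 0.14. Myc, the transcription factor that drives ribosome production, was at 4.73, 6.68 and 16.2 TPM in HFD and at 21.1, 5.89 and 18.2 TPM in HEP, with the rich libraries above the low ones. Of 7 genes of the checkpoint that free ribosomal proteins trigger through Mdm2 and p53, 5 were higher in HEP. Cdkn1a, the p53 target that stops the cell cycle, was at 46.0, 57.4 and 30.2 TPM in HFD and at 24.1, 21.8 and 28.7 TPM in HEP. Every HEP library was below every HFD library, with a log2 fold change of -0.78 ± 0.26 (SE), unadjusted p = 0.0224 and adjusted p = 0.879 in limma.

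The mitochondrial ribosomal proteins, encoded in the nucleus for the ribosome of the mitochondrion, mostly had lower means with hesperidin. Of 76 tested, 13 (17.1%) were higher in HEP by their mean, against 58.6% of all tested genes. Their log2 fold changes had a median of -0.12, with a rich-minus-low median of -0.18. The same medians were -0.16 and -0.32 under median-of-ratios scaling and -0.24 and -0.36 under quantile normalization. Under these scalings 9 and 6 were higher in HEP, against 53.9% and 42.3% of all genes. All rich libraries were below all low ones for 26 of them (13.7% of all tested genes) and above for 2 (30.5%). Under median-of-ratios scaling 36 were below, with 23.6% of all genes, and under quantile normalization 36, with 30.1%. Mrpl13 was at 60.4, 68.4 and 59.3 TPM in HFD and at 40.8, 62.0 and 45.4 TPM in HEP, with HEP 2 again among the HFD libraries.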

How the data were processed

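RNA-seq of 6 libraries (3 HFD, 3 HEP) was used as deposited. TRIzol extraction and a TruSeq kit are given by the labels. TPM values per gene were made by the authors, who name fastp, HISAT2, RSEM, StringTie and DESeq2 in the submitters' processing notes, without roles. The sources used here name no genome build or annotation. Libraries were grouped by title. Genes averaging 1 TPM or more were compared on the log2(TPM + 1) scale with limma 3.58.1 under R 4.3.3, using a trended variance prior, two-sided, Benjamini-Hochberg adjusted over all 15446 genes at 0.05. A log2 fold change on this scale understates the change of low genes. Depth is unknown, so no counting interval is given. The fit was also run on simulated data in which each gene varied independently. The members moved together, so that run says nothing of how the fit treats them. Members, lists and the lymphocyte split were chosen with earlier results of these data known, which is why no list is tested.

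Named members were Rpl38, Rpsa, Rplp0, Rpl13a, Rps18, Rps6, Rpl5 and Rpl11, the 6 with the smallest p, the 3 highest, the 3 lowest and the 3 with the widest range, all paralog pairs and the untested member. From the lists, the 2 genes with the smallest p of each list could be named, and Fau, Rack1, Eef1a1, Tpt1 and Myc. An item of the lists is not reported here. Rps15a, Rplp1, Rplp2 and Rpl41 and the members with copies were chosen after their values were seen. Alternatives were other pseudocounts, filters, scalings, subsets of libraries, a replicate block and a lymphocyte covariate. Sequences came from the RefSeq promoter table (GRCm38.p6).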

Additional observations from a re-analysis of the deposited data

How the results depend on the processing

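With 18 alternatives, 0 members were called in each, and the smallest adjusted p of a member in any was 0.207. The fits within the lymphocyte-low and the rich libraries had 1 library in an arm, so their lack of calls says nothing of stability. The median log2 fold change of the members was 0.43 and ranged from 0.22 to 0.75 with 1 library left out. It was 0.39 with median-of-ratios scaling and 0.33 with quantile normalization. The count of members whose groups do not overlap was 0, with 0 to 75 when 1 library was left out. Within the lymphocyte-low libraries it was 15, 12 with HEP higher (20.9% of all genes) and 3 with HEP lower (38.7%). Within the rich ones it was 76, 74 higher (45.7%) and 2 lower (24.2%). After scaling to the members' median it was 2, and 37 members were higher in HEP. With few libraries left, groups fail to overlap more easily.

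Of 468 values of 26 named members, 437 kept their direction. The reversed log2 fold changes, with causes not tested, were -0.034 for Rpl36al with median-of-ratios scaling and -0.036 for Rpl38 with quantile normalization. With the lymphoid covariate they were -0.085 for Rpl38, 0.58 for Rpl39l, -0.023 for Rpl22, -0.00090 for Rpl36a and -0.10 for Rpl36al. Within the lymphocyte-low libraries they were -0.11 for Rpl38, -0.28 for Rpl5, 0.0062 for Rps4l, -0.027 for Rpl3, -0.066 for Rpl7l1, -0.060 for Rpl22, -0.047 for Rpl36a and -0.15 for Rpl36al. Within the rich ones it was 1.04 for Rpl39l. Scaled to the members' median they were -0.24 for Rpl38, -0.15 for Rpl11, -0.047 for Rpl10, -0.030 for Rpl7, -0.26 for Rpl7l1, -0.16 for Rpl22, -0.12 for Rpl22l1, -0.10 for Rpl36a, -0.45 for Rpl36al and -0.048 for Rpl39. With 1 library left out, Rpl39l ran from -0.96 to 0.27 and Rpl36al from -0.11 to 0.12.

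Deviations of same-numbered libraries from their group means correlated at -0.355, 0.368 and 0.651, and those of differently numbered ones at -0.71 to 0.503. Since both kinds spread widely, these values cannot show whether the replicate numbers pair the libraries. With the replicate block the members' median stayed at 0.43 with 0 called.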

Other observations

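Eef1a2, the muscle and nerve form of elongation factor 1A, followed the same libraries as Rpl3l. It was at 0.41, 3.71 and 0.32 TPM in HFD 1 to 3 and at 9.27, 91.0 and 0.22 TPM in HEP 1 to 3, highest in HEP 2 and next in HEP 1. Its housekeeping relative Eef1a1 was at 3266 TPM in HEP 2, between HFD 1 and HFD 2. Both muscle-type genes of the translation apparatus were therefore high in the library with the highest skeletal muscle marker sum, and both overlapped between the diet groups.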
